A study of Mus musculus with 6 samples.

Results

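Transcription factors that build the heart were followed in native cardiac fibroblasts (CFs) of wildtype (WT) and CharmeKO mice. They were the zinc finger factors Gata4 and Gata6, the T-box factors Tbx5 and Tbx20, the basic helix-loop-helix factors Hand2 and Tcf21, the MADS-box factors Mef2a and Mef2c, and the homeobox factors Nkx2-5 and Meis1, 10 of the 49548 genes in the count table, chosen by name. The mRNA was sequenced from CFs isolated from hearts of mice aged 5 weeks, with 3 WT and 3 CharmeKO libraries. CharmeKO mice carry a transcription termination signal inserted in the locus of Charme, a long noncoding RNA of cardiac and skeletal muscle, in every cell of the body, so the cardiomyocytes of these hearts carry it too. The study used C57BL/6J mice and depleted blood lineage cells after digestion of the tissue. The labels number the libraries 1 to 3 in each group but name no animals, so the p-values measure the spread between these libraries.

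Cardiac transcription factors act in combinations. GATA4, TBX5, NKX2-5, HAND2 and MEF2C bind regulatory DNA together and switch on genes of the contractile apparatus in cardiomyocytes, and forced expression of Gata4, Mef2c and Tbx5, often with Hand2, turns fibroblasts towards a cardiomyocyte state. Fibroblasts of the heart keep part of this set, since they descend largely from the epicardium, where TCF21 is required for the fibroblast lineage, and Gata4 and Tbx20 are known as marks of fibroblasts that come from the heart rather than from other organs. Endothelial and endocardial cells also use several of them, among them Mef2c, Gata6, Tbx20 and Meis1.

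All 10 factors had enough reads to be tested (at least 10 counts in at least 2 libraries), and 0 of 10 passed an adjusted p of 0.05 between CharmeKO and WT CFs in edgeR's quasi-likelihood test (adjusted by Benjamini-Hochberg). Of the 15789 genes tested, 131 passed, 0.83% of them, and DESeq2 called 394, or 2.5%, again with 0 of the 10 factors. At an unadjusted p under 0.05 there were 2 of 10 factors, Gata6 with lower and Meis1 with higher values in CharmeKO, where 12.8% of all genes were. The same 2 factors had groups that did not overlap, as 18.2% of all genes had. The median absolute log2 fold change of the 10 factors was 0.11, against 0.20 over all tested genes. The factors also varied less between libraries, with a median biological coefficient of variation in edgeR of 13.4% against 17.0%, so the 2 medians are not like for like.

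The libraries held between 9595701 counts, in WT 3, and 42101393 counts, in WT 1. Charme itself, the targeted gene, had 26, 15 and 4 counts in WT 1 to 3 and 7, 0 and 0 in CharmeKO 1 to 3, a difference in the direction of the labels in a gene that was barely read in these cells (log2 fold change −2.66, SE 1.14, adjusted p = 0.362 by edgeR's quasi-likelihood test). Fibroblast markers were high in every library, with a summed level of 43870 to 45742 CPM, the counts scaled to a common library total, in WT and 35748 to 44815 CPM in CharmeKO. The largest part of this sum was Gsn, at 17340 to 26456 CPM in WT and 20095 to 22393 CPM in CharmeKO. Endothelial markers were high too, at 9246 to 11413 CPM in WT and 9818 to 12402 CPM in CharmeKO, and mural cell markers stood at 2614 to 2976 and 2570 to 3028 CPM. Endocardial markers summed to 740 to 874 CPM in WT and 547 to 634 CPM in CharmeKO, groups that did not overlap. Most of this sum was Vwf, which is also on the endothelial list. Vwf was at 575 to 688 CPM in WT and 399 to 496 CPM in CharmeKO (log2 fold change −0.49). Values were lower in CharmeKO for 6 of 7, with a median log2 fold change of −0.33. Of these 1 fell (Plvap, an endothelial diaphragm protein, log2 fold change −0.92, adjusted p = 0.0079 in edgeR's quasi-likelihood test). The rest were mixed, with Npr3 at −0.07, Cytl1 at 0.17, Tmem108 at −0.17, Cdh11 at −0.33 and the little read Hapln1 at −0.92. The part of endocardial markers in the values of Gata4, Gata6, Tbx20, Mef2c and Meis1 was not tested. Cardiomyocyte markers summed to 996 to 1119 CPM in WT and 1206 to 1615 CPM in CharmeKO, groups that did not overlap, and of 26 tested 22 had higher values in CharmeKO and 3 rose (Myh6, Tnni3 and Mb, adjusted p from 0.02 to 0.0339 in edgeR's quasi-likelihood test). Myl7 and Nppb had too few counts to be tested. Myl7 had 1, 8 and 2 counts in WT 1 to 3 and 0 in all CharmeKO libraries. Nppb had 2, 0 and 0 counts in WT 1 to 3 and 0, 7 and 14 in CharmeKO 1 to 3. Hemoglobin and other erythroid RNA was at 26778 to 39216 CPM in WT and 24417 to 31749 CPM in CharmeKO, while leukocyte markers reached at most 54.6 CPM. In such bulk samples fewer cells of a type cannot be told apart from less RNA per cell. Xist, the RNA of female cells, exceeded the Y-linked Ddx3y in WT 1, CharmeKO 1 and CharmeKO 2, and Ddx3y exceeded Xist in the other 3 libraries. CharmeKO 1 had 13553 Xist counts together with 59 of Ddx3y, and WT 2 had 67 Xist counts with 1502 of Ddx3y.

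Ranked by TPM, the level per length of exon scaled to a common total, the 10 factors spread over 184-fold in mean level. Tcf21 came first at 128 ± 15.5 TPM (SD, n = 6 libraries), above 93.7% of the tested genes. Tbx20 at 45.1 ± 7.24, Gata4 at 43.2 ± 5.13, Mef2a at 36.2 ± 2.49 and Gata6 at 32.7 ± 4.29 TPM made up a middle group. Mef2c at 20.2 ± 3.48 and Hand2 at 18.5 ± 1.66 TPM followed, then Meis1 at 4.83 ± 1.23 TPM. Nkx2-5 at 2.83 ± 0.902 TPM and Tbx5 at 0.696 ± 0.416 TPM were at the bottom, and Tbx5 lay above 10.2% of the tested genes. Between neighbours in this order the ranges over the 6 libraries overlapped in 7 of 9 pairs, and only the steps from Tcf21 to Tbx20 (2.85-fold) and from Hand2 to Meis1 (3.83-fold) were free of overlap. Mef2c exceeded Hand2 in 4 of 6 libraries, and Mef2a exceeded Gata6 in 4 of 6, so these neighbours did not differ beyond their spread. Within a library Tcf21 was above Tbx20 in 6 of 6, Gata4 above Mef2a in 6 of 6, and Nkx2-5 above Tbx5 in 6 of 6. Counts without the length gave 7 of the 10 factors another place, since the exons of Mef2c cover 15715 bases, those of Mef2a 14681 and those of Tbx20 11997, against 2349 for Tcf21 and 2351 for Hand2. By CPM, Tbx20 came first, followed by Mef2a and Mef2c, and Tcf21 was in place 4.

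**Figure D1:**
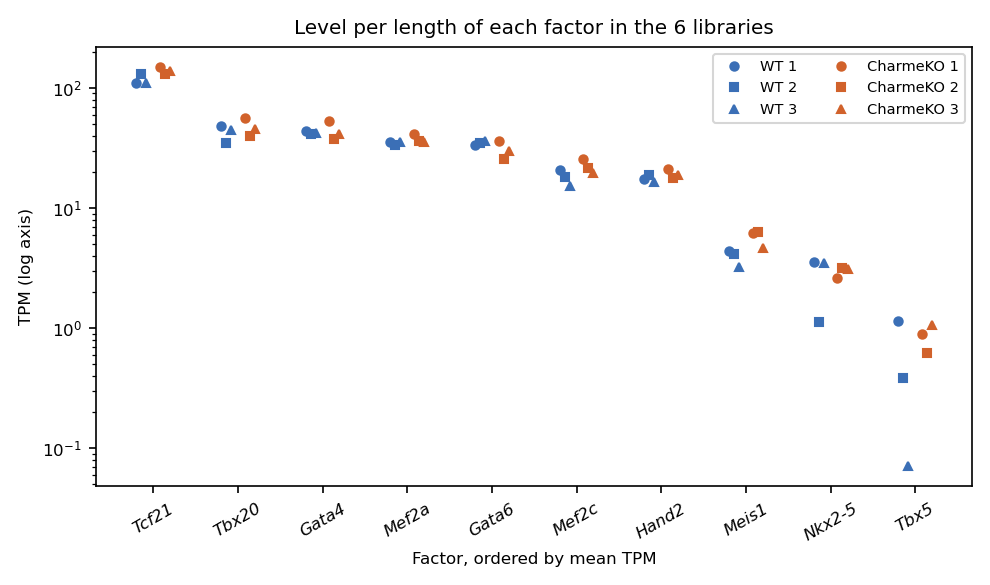
TPM of each of the 10 factors in the 6 libraries on a log axis, ordered by their mean, with WT in blue, CharmeKO in orange and the marker shape giving the replicate number. Tcf21 stands apart at 111 to 150 TPM, 6 factors lie between 15.4 and 56.1 TPM, and Tbx5 runs from 0.0707 to 1.14 TPM.

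The base composition of promoters of these factors is shown with RefSeq sequences on the GRCm38.p6 build for the pair of MEF2 genes and for Tbx20. RefSeq windows were matched by symbol for 7 of 10 factors (Tbx20, Hand2, Tcf21, Mef2a, Mef2c, Nkx2-5 and Meis1, but not Gata4, Gata6 and Tbx5). The 250 bases before the transcription start are given for the windows of Tbx20, Mef2a and the first of 3 of Mef2c, which hold no exon of the GENCODE annotation of this build. Capitals mark matches on either strand to GATA, to the E-box CANNTG bound by basic helix-loop-helix factors, to AAGTG bound by NK2 homeobox factors, to TGACAG bound by MEIS factors, and to GGTGTG of the T-box core. The Tbx20 window is chr9:24774304-24774553 on the minus strand, the Mef2a window chr7:67372859-67373108 on the minus strand, and the Mef2c window chr13:83503784-83504033 on the plus strand, all written 5′ to 3′.
Tbx20: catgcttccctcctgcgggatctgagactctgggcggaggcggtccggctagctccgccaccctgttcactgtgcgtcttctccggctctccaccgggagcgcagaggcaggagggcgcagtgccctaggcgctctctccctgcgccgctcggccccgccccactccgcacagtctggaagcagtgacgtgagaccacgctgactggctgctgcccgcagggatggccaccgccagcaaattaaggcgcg
Mef2a: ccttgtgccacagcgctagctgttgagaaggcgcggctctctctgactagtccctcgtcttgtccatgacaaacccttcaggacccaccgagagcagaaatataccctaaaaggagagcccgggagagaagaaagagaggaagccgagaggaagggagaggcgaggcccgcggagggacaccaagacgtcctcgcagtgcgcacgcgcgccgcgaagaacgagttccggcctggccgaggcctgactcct
Mef2c: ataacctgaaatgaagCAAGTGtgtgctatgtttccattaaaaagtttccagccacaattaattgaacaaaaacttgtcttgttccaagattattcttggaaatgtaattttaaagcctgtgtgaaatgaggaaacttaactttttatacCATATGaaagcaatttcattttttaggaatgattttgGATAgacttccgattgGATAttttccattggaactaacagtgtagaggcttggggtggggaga
The Tbx20 window was 68.8% G and C with 22 CpG pairs and the Mef2a window 61.6% with 21, above the median of all 32841 windows (52.4% and 6). The printed Mef2c window was 33.6% G and C with 1 CpG, and the other windows of Mef2c were 44.8% with 6 and 49.6% with 4, nearer to that median. Neither the Tbx20 nor the Mef2a window held a match to any of the 5 motifs, while the printed Mef2c window held 2 GATA matches, 2 E-boxes and 1 AAGTG that lies inside an E-box. Over all windows of this length 53.6% held GATA, 66.2% an E-box, 40.7% AAGTG, 16.3% GGTGTG and 15.9% TGACAG. These matches describe letters and are not sites of binding.

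Gata4 and Gata6 encode zinc finger factors that share a DNA motif and partly stand in for each other in the heart. Gata4 was at 57.0, 54.5 and 53.3 CPM in WT 1 to 3 and at 60.6, 47.1 and 51.4 CPM in CharmeKO 1 to 3. The groups overlapped, with the highest and the lowest value both in CharmeKO. Its log2 fold change was −0.05 (SE 0.12, 95% interval −0.31 to 0.21, adjusted p = 0.898 by edgeR's quasi-likelihood test), which bounds the level in CharmeKO to between 0.806 and 1.16 times that of WT. Gata6 was at 72.6, 76.4 and 76.8 CPM in WT and at 69.2, 53.5 and 61.0 CPM in CharmeKO. All 3 CharmeKO libraries lay below the WT libraries, CharmeKO 1 by the smallest gap and CharmeKO 2 by the largest. The log2 fold change of Gata6 was −0.30 (SE 0.12, 95% interval −0.55 to −0.04, edgeR's quasi-likelihood test), with an adjusted p of 0.317. The interval leaves out 0, but the call failed the correction over all genes, and over 14 alternatives the value ran from −0.39 to −0.21 with adjusted p-values of 0.226 and above (edgeR or DESeq2).

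Because the 2 GATA factors are read in the same libraries, their ratio is free of the scaling of a library. The log2 ratio of Gata4 to Gata6 CPM was −0.35, −0.49 and −0.53 in WT and −0.19, −0.18 and −0.25 in CharmeKO. The means were −0.45 ± 0.09 and −0.21 ± 0.03 (SD, n = 3), and the difference of 0.25 gave p = 0.1 in a two-sided exact permutation test, the smallest p that 3 against 3 allows. It was 1 of 4 ratios computed, picked after the values were seen, and a 5% threshold was out of reach. Gata6os, a noncoding RNA transcribed from the other strand next to Gata6, was at 1.03, 1.48 and 0.753 CPM in WT and at 1.01, 2.25 and 1.71 CPM in CharmeKO, with overlapping groups (log2 fold change 0.56, SE 0.46, adjusted p = 0.668 by edgeR's quasi-likelihood test). The log2 ratio of Gata6 to Gata6os averaged 6.16 ± 0.494 in WT and 5.27 ± 0.768 in CharmeKO (SD, n = 3, p = 0.2, exact permutation test).

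**Figure D2:**
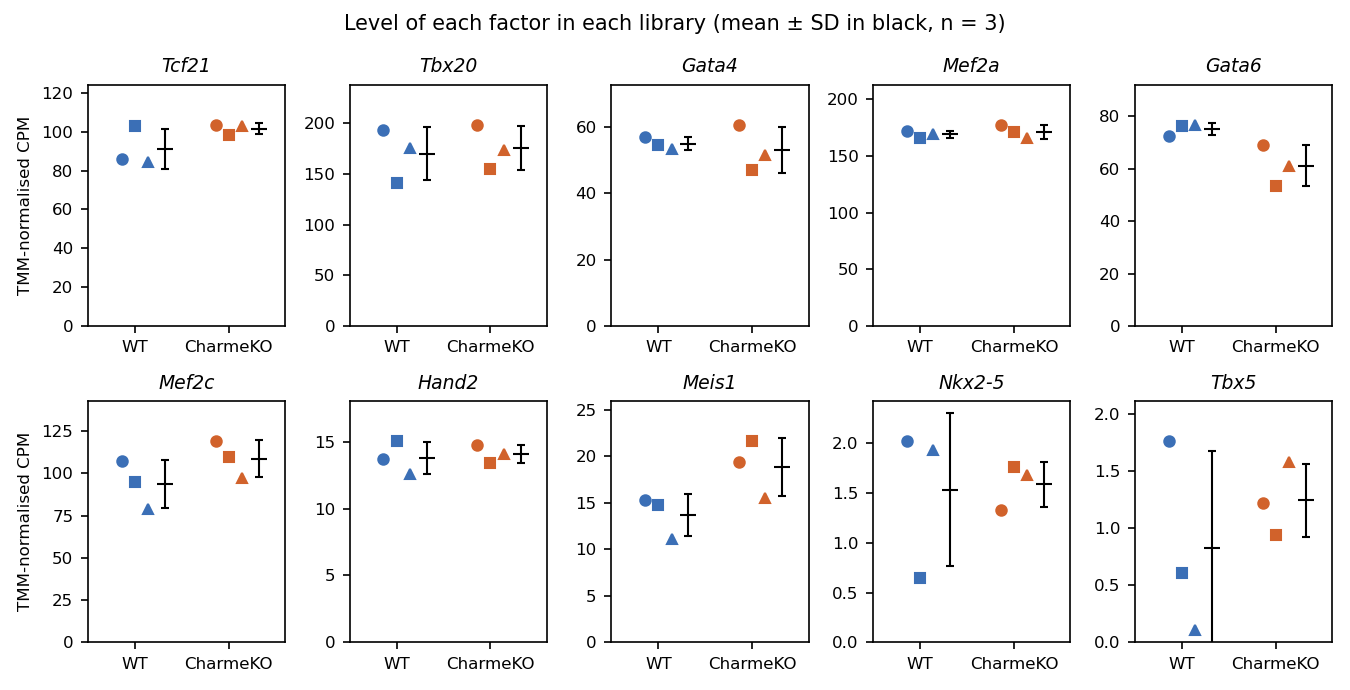
Normalised CPM of each factor in each WT (blue) and CharmeKO (orange) library, with the mean ± SD of 3 libraries in black and every axis starting at 0, where the lower bar of Tbx5 in WT is cut off. Gata6 and Meis1 are the 2 factors whose groups do not overlap, and the WT libraries of Nkx2-5 and Tbx5 spread from 0.647 to 2.02 and from 0.108 to 1.76 CPM.

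Tbx20 and Tbx5 are T-box factors of opposite habit in these cells. Tbx20, which acts in endocardium, valves and myocardium, was among the most read of the 10 factors, at 193, 141 and 175 CPM in WT and 199, 155 and 174 CPM in CharmeKO. The number 2 libraries were lowest in both groups, and the groups overlapped almost wholly (log2 fold change 0.05, SE 0.15, 95% interval −0.27 to 0.37, adjusted p = 0.919 by edgeR's quasi-likelihood test). Tbx5, which patterns the heart and is mutated in Holt-Oram syndrome, was counted 75, 16 and 1 times in WT and 35, 23 and 48 times in CharmeKO. The exact Poisson 95% intervals of these counts were 59.0 to 94.0, 9.15 to 26.0 and 0.0253 to 5.57 in WT, and 24.4 to 48.7, 14.6 to 34.5 and 35.4 to 63.6 in CharmeKO, and they cover counting error only. As CPM the WT values were 1.76, 0.609 and 0.108, a 103% coefficient of variation, and the CharmeKO values 1.22, 0.941 and 1.58, so the 3 CharmeKO libraries fell inside the WT range. The log2 fold change was 0.45 (SE 0.66, 95% interval of the fold from 0.50 to 3.73, adjusted p = 0.831 by edgeR's quasi-likelihood test), and with WT 1 left out it was 1.59 while with WT 3 left out it was 0.06. The counting intervals of WT 1 and WT 3 lay far apart, and as the upper end of the interval shows, a level of Tbx5 in CharmeKO up to 3.73 times that of WT is compatible with these values.

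Tcf21 and Hand2 are basic helix-loop-helix factors that pair with the E proteins. Tcf21, the factor of the fibroblast lineage, was at 86.0, 103 and 84.7 CPM in WT and at 104, 98.6 and 103 CPM in CharmeKO. WT 2 lay among the CharmeKO libraries, and WT 1 and WT 3 below them, with a coefficient of variation of 11.3% in WT and 2.67% in CharmeKO. The log2 fold change was 0.15 (SE 0.11, 95% interval −0.09 to 0.40, adjusted p = 0.619 by edgeR's quasi-likelihood test). The 14 fibroblast markers had a median log2 fold change of −0.36, with 11 of 14 at lower values in CharmeKO. Of these, Lamc3, a laminin chain, was the 1 past the threshold. That median has the other sign from Tcf21, but the markers were mixed. Among the lower ones were Col1a1 (−0.77) and Thy1 (−0.71), with Pdgfra and Dpt near 0 (−0.05 each). The 3 with higher values were Gsn (0.03), Dcn (0.29) and Lum (0.32). Hand2, known from the right ventricle and the neural crest, was at 13.7, 15.0 and 12.6 CPM in WT and at 14.7, 13.4 and 14.1 CPM in CharmeKO. All CharmeKO libraries lay inside the WT range (log2 fold change 0.03, SE 0.14, 95% interval −0.29 to 0.34, adjusted p = 0.963 by edgeR's quasi-likelihood test). Hand2os1, the noncoding RNA that shares the Hand2 promoter on the other strand, was at 2.33, 3.61 and 2.80 CPM in WT and at 3.67, 3.19 and 4.14 CPM in CharmeKO (log2 fold change 0.33, SE 0.29, adjusted p = 0.688 by the same edgeR test). The log2 ratio of Hand2 to Hand2os1 averaged 2.26 ± 0.263 in WT and 1.95 ± 0.162 in CharmeKO (SD, n = 3, p = 0.2, exact permutation test). The counting was stranded, so reads of the 2 strands were told apart.

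Mef2a and Mef2c bind the same A and T rich element and differ in where they are used, Mef2c being the early cardiac and endothelial member and Mef2a a broad one. Mef2a was at 172, 166 and 169 CPM in WT and at 178, 171 and 165 CPM in CharmeKO. With a coefficient of variation of 2.64% over the 6 libraries it was the steadiest of the 10 factors (log2 fold change 0.02, SE 0.11, 95% interval −0.22 to 0.25, adjusted p = 0.966 by edgeR's quasi-likelihood test). Mef2c was at 107, 95.0 and 78.7 CPM in WT and at 119, 110 and 97.3 CPM in CharmeKO. The 2 highest values were in CharmeKO and the 2 lowest in WT, but CharmeKO 3 was below WT 1 and the groups overlapped (log2 fold change 0.21, SE 0.13, 95% interval −0.08 to 0.51, adjusted p = 0.553 by edgeR's quasi-likelihood test). The log2 ratio of Mef2c to Mef2a was −0.69, −0.81 and −1.11 in WT and −0.58, −0.64 and −0.77 in CharmeKO, with means of −0.87 ± 0.22 and −0.66 ± 0.10 (SD, n = 3, p = 0.2, exact permutation test). Of the 12 endothelial markers, 7 had higher values in CharmeKO, 0 passed the threshold and their median log2 fold change was 0.21. Their part in the Mef2c values was not tested.

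Nkx2-5 and Meis1 carry homeodomains. Nkx2-5, the classic factor of the cardiomyocyte, was counted 86, 17 and 18 times in WT and 38, 43 and 51 times in CharmeKO. The exact Poisson 95% intervals were 68.8 to 106, 9.90 to 27.2 and 10.7 to 28.4 in WT. In CharmeKO they were 26.9 to 52.2, 31.1 to 57.9 and 38.0 to 67.1. As CPM the values were 2.02, 0.647 and 1.94 in WT and 1.33, 1.76 and 1.68 in CharmeKO, so WT 2 stood below the other 5 libraries and the 3 CharmeKO libraries lay inside the WT range. The log2 fold change was 0.07 (SE 0.48, 95% interval −0.98 to 1.11, adjusted p = 0.971 by edgeR's quasi-likelihood test). The summed cardiomyocyte markers were also lowest in WT 2, at 996 CPM, but highest in CharmeKO 1, where Nkx2-5 was second lowest, and the part of cardiomyocyte RNA in the Nkx2-5 and Tbx5 reads was not tested. Meis1, a partner of HOX proteins that takes part in the exit of cardiomyocytes from the cell cycle, was at 15.3, 14.7 and 11.1 CPM in WT and at 19.4, 21.6 and 15.5 CPM in CharmeKO. The groups did not overlap, by a gap between WT 1 and CharmeKO 3 that was small beside the spread within the groups. The log2 fold change was 0.44 (SE 0.17, 95% interval 0.06 to 0.82, edgeR's quasi-likelihood test), with an adjusted p of 0.317, and over 14 alternatives it ran from 0.33 to 0.64 with adjusted p-values of 0.144 and above (edgeR or DESeq2). With the sign of Xist against Ddx3y as a further term, chosen after seeing the data, the log2 fold change was 0.34 for Meis1 and −0.29 for Gata6 (adjusted p = 0.530 and 0.478, edgeR's quasi-likelihood test).

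**Figure D3:**
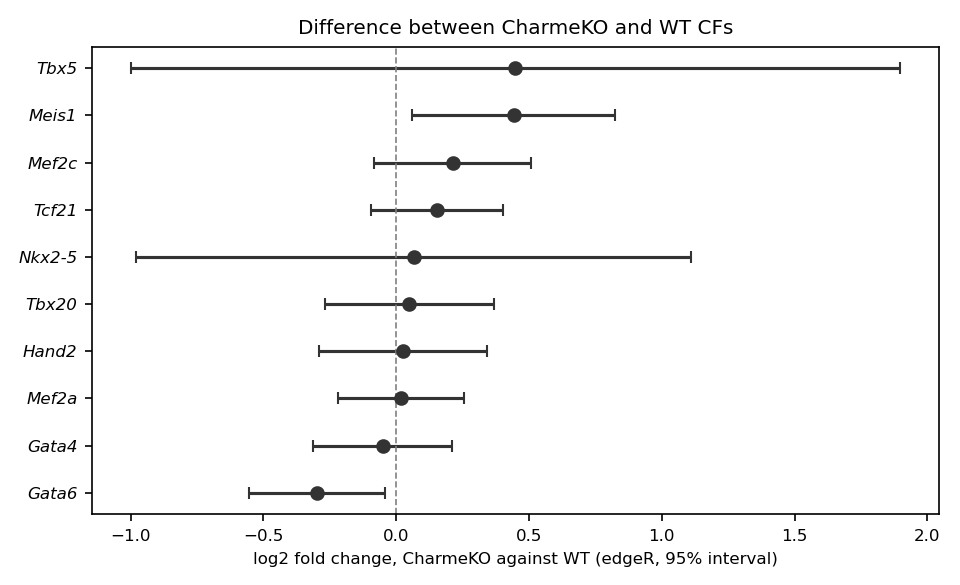
Log2 fold change of each factor in CharmeKO against WT CFs with its 95% interval from edgeR, sorted by value. The intervals of Gata6 (−0.55 to −0.04) and Meis1 (0.06 to 0.82) leave out 0 before correction over all genes, and those of Tbx5 and Nkx2-5 are the widest.

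The families and partners of the 10 factors were read from lists of 47 relatives and 43 partners and other cardiac regulators. Of 30 relatives that could be tested 0 passed the threshold by edgeR's quasi-likelihood test, 12 had higher and 18 lower values in CharmeKO, and their median log2 fold change was −0.11. Unadjusted p-values under 0.05 came with 4 of 30 relatives, all lower in CharmeKO, a share close to the 12.8% over all genes, and with 7 of 37 partners, 6 of them lower and 1 higher. Of 37 partners tested 1 fell and 0 rose, 24 in all had lower values, and the median was −0.09, where the median of all tested genes was 0.01. The one that fell was Wt1, the zinc finger factor of the epicardium that is also made in endothelial cells, at 52.5, 53.6 and 46.2 CPM in WT and 33.3, 31.2 and 32.3 CPM in CharmeKO. Its log2 fold change was −0.66 (SE 0.11, adjusted p = 0.0189 by edgeR's quasi-likelihood test). The call was lost without WT 1 (adjusted p = 0.0895), without CharmeKO 1 (0.101) and without CharmeKO 2 (0.113), at fold changes between −0.68 and −0.63. Of 9 tested epicardial and mesothelial markers 8 had lower values in CharmeKO, 0 passed the threshold and the median log2 fold change was −0.77. That median was the value of Krt18, with 14, 9 and 6 counts in WT and 9, 0 and 12 in CharmeKO. An unadjusted p under 0.05 came with 3, all lower (Upk1b, Lrrn4 and Krt19), none of them above 3.58 CPM in any library. The summed level of the list was 63.7 to 92.3 CPM in WT and 66.7 to 80.0 CPM in CharmeKO, with Aldh1a2 at 31.2 to 76.6 CPM as its largest part (log2 fold change 0.06). Gpm6a, the next most read, was at 7.90 to 10.5 CPM (log2 fold change −0.04). The part of these markers in the Wt1 result was not tested.

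The relatives with the highest level per length were Tcf15 at 398 ± 91.8 TPM, a basic helix-loop-helix factor of heart endothelium, Srf at 137 ± 16.4 TPM, the other MADS-box factor, Mef2d at 110 ± 12.5, Gata2 at 68.4 ± 14.1 and Tbx2 at 60.0 ± 9.37 TPM (SD, n = 6). Mef2d had a higher mean level per length than Mef2a and Mef2c, and Gata2, the endothelial and blood member, a higher one than Gata4 and Gata6. Groups did not overlap for 6 of the 30 tested relatives, 1 of them higher in CharmeKO, where 18.2% of all genes were without overlap. Among the 5 most abundant these were Tbx2 and Mef2d, both with lower values in CharmeKO (log2 fold changes −0.31 and −0.29, adjusted p = 0.365 and 0.374 by edgeR's quasi-likelihood test). The partners with the highest level were the inhibitors Id1 at 990 ± 362, Id3 at 690 ± 196 and Id2 at 138 ± 13.9 TPM, which bind E proteins and keep them from basic helix-loop-helix factors, with Hdac7, which represses MEF2 proteins, at 177 ± 15.0 and the E protein gene Tcf3 at 128 ± 13.8 TPM (SD, n = 6). Id1 was at 661 CPM in WT 2 against 261 to 370 CPM in the other 5 libraries. By lowest unadjusted p the other named genes were Tgif1 (−0.47, adjusted p = 0.178), Mrtfa (−0.52, 0.202), Hopx (0.63, 0.171), Tbx21 (2.49, 0.426) and Smarcd3 (0.26, 0.517), with log2 fold changes and adjusted p-values from edgeR's quasi-likelihood test. Tbx21 was barely read, with 6, 0 and 0 counts in WT 1 to 3 and 17, 13 and 2 in CharmeKO 1 to 3. Hopx, a homeodomain protein that does not bind DNA and restrains SRF, was at 10.2, 8.03 and 7.96 CPM in WT and 12.2, 13.1 and 15.6 CPM in CharmeKO, without overlap. Tgif1 was called in 2 alternatives, without WT 2 (−0.57, adjusted p = 0.0431) and with every counted gene tested. Some relatives and 1 partner, named here after their values were seen, were at or near 0 in these cells. Hand1 had 1 count in the 6 libraries together, Nkx2-6 had 0 and Mef2b had 4, and the partner Isl1 had 0.

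**Figure D4:**
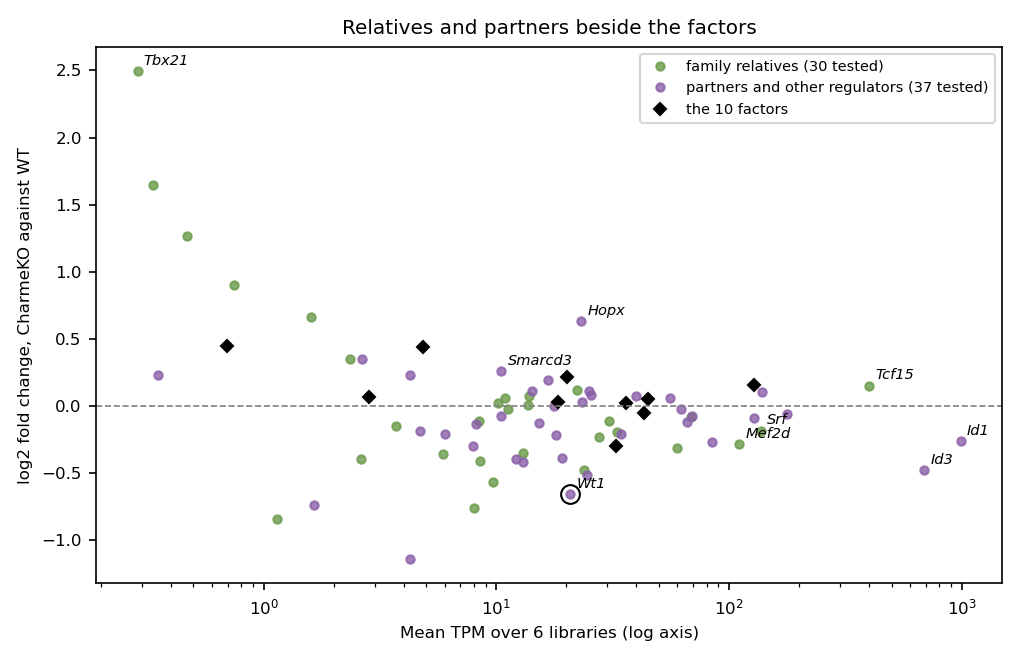
Log2 fold change in CharmeKO against WT CFs over the mean TPM (log axis) of the 30 tested relatives (green), the 37 tested partners (purple) and the 10 factors (black diamonds). Wt1, ringed, is the 1 gene past the threshold, at −0.66, and the points with the highest fold changes are genes under 1 TPM.

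The pattern of each factor over the 6 libraries was compared with that of 130 genes of the relative, partner and marker lists with a mean of at least 5 CPM, by the root mean square difference of their log2 CPM after centring. All libraries enter both members of a pair, and 6 points describe these libraries only. Gata6 was nearest to Tbx2 (0.07 on the log2 scale) and then to Pdgfrb, a mural cell receptor (0.09). Gata4 was nearest to Npr3 (0.05), a marker of the endocardium, and Tcf4 (0.09). Tbx20 was nearest to Prrx1 and Pknox1 (0.08 each), and Tcf21 to Id2 (0.06) and to Dcn (0.09), the gene of the matrix proteoglycan decorin. Hand2 lay nearest to Foxc1 (0.08) and Id2 (0.09), and Mef2a to Tcf4 (0.04) and Foxc1 (0.05). The root mean square deviations of Hand2 (0.085) and Mef2a (0.035) themselves were about as small, so these distances alone do not show a shared pattern. Mef2c was nearest to Gja5 (0.06), a connexin of arteries and atria. Meis1 was nearest to Actn2 (0.06), which encodes the sarcomere protein alpha-actinin, and then to Kdr (0.14), the endothelial VEGF receptor. Nkx2-5 had Aldh1a2 (0.26) and Cd79a (0.28) as nearest genes and Tbx5 had Myoz2 (1.12) and Hopx (1.15), beside root mean square deviations of their own of 0.56 and 1.37.

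**Figure D5:**
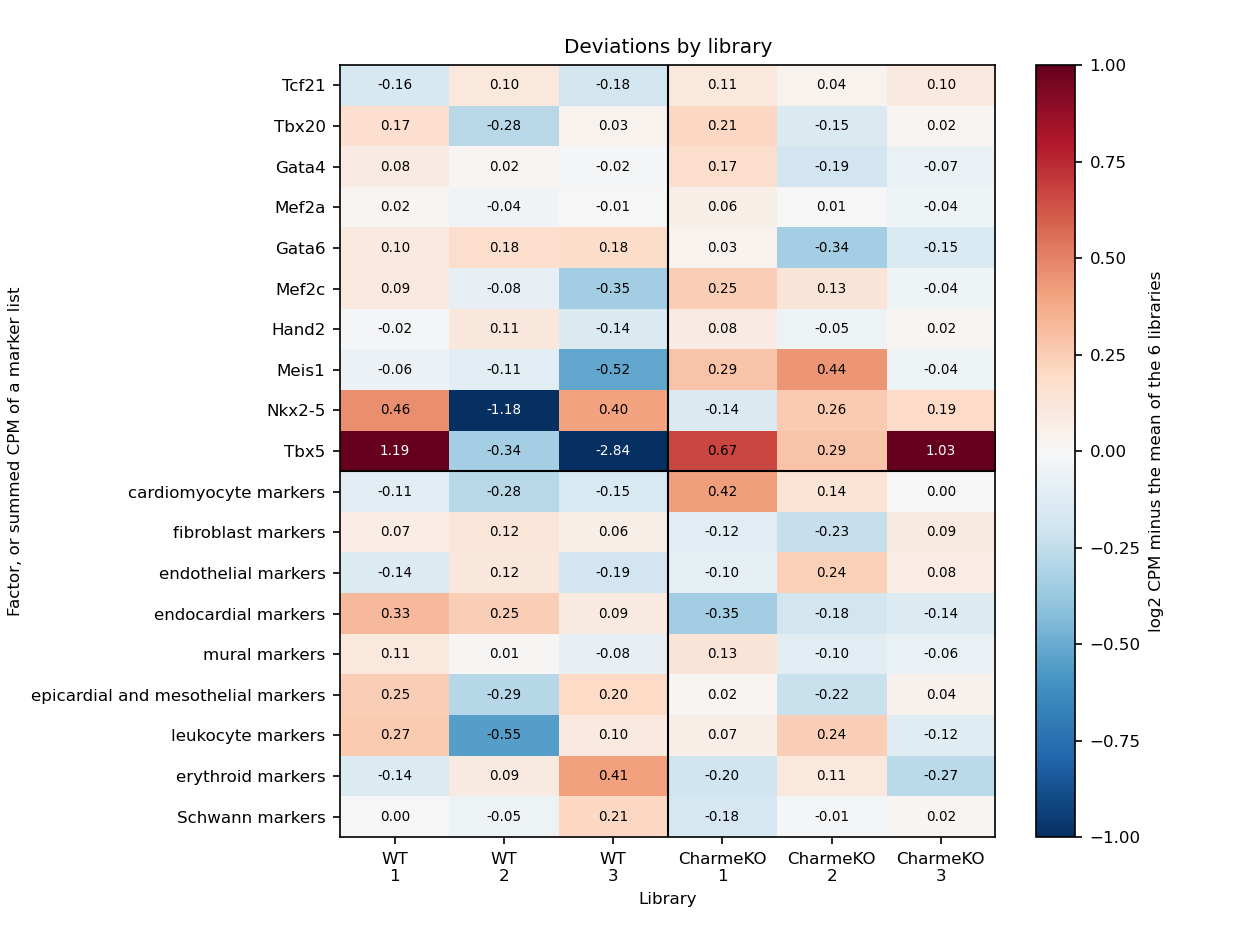
Deviation of each factor, and of the summed CPM of each marker list, from its mean over the 6 libraries on the log2 scale, with colours ending at −1 and 1. Tbx5 in WT 3 (−2.84) and Nkx2-5 in WT 2 (−1.18) are the deepest values, Mef2a stays within 0.06 of its mean, and the cardiomyocyte markers run from −0.28 in WT 2 to 0.42 in CharmeKO 1.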

How the data were processed

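Poly(A) mRNA was sequenced from native CFs in a stranded library for each of 3 WT and 3 CharmeKO samples. The labels also give a growth medium for these samples, although they name the cells native. The authors filtered Illumina reads, aligned them with STAR to a mouse assembly and counted reads per gene on the reverse strand, on an Ensembl annotation edited to add Charme. The deposited values are these raw counts for 49548 genes, with no normalization. The assembly and the annotation release named do not belong to the same build, so no coordinate is given for the counts. The submitters' processing notes also name DESeq2.

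Here, the test took 15789 genes, each with 10 or more counts in 2 or more libraries. CharmeKO was compared with WT by edgeR 4.0.16 (TMM, quasi-likelihood test, Benjamini-Hochberg adjusted p under 0.05) in R 4.3.3. Standard errors come from the F statistics, and the common biological coefficient of variation was 20.2%. CPM are TMM-normalised. TPM used merged exon lengths of GENCODE M21, which 99.8% of the tested genes matched. Single ratios were compared by exact permutation tests. A count of 0 allows up to 3 counts, or 0.0713 to 0.313 CPM, and intervals cover counting error only. Between libraries of a group the chi-square per gene was 15.3 to 68.6, so none was a copy of another. The test was checked on simulated counts with planted changes larger than those of the factors. That check does not show how well smaller differences are found.

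The factors and lists were chosen with earlier results of these data known. Named beside the 10 factors are, from the relatives and partners, every gene past the threshold, the 5 of each list with the highest level per length, and the 3 of both with the lowest unadjusted p in each direction. Antisense neighbours named after a factor, the 2 genes nearest to each factor in pattern, and marker genes past the threshold are also named. Some further marker genes were named after their values were seen. One gene that this rule names is not reported here. Alternatives were DESeq2 1.42.0, other size factors and filters, a replicate block, each library left out, counts thinned to the smallest library, and CPM without length for the order. A term for Xist against Ddx3y was added after seeing the data. Figures were drawn with matplotlib 3.10.9.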

Additional observations from a re-analysis of the deposited data

How the results depend on the processing

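None of the 10 factors passed the threshold in any of the 14 alternatives, and their median log2 fold change of 0.06 ran from 0.02 with the term for Xist against Ddx3y to 0.13 without WT 1, with 0.12 after thinning and 0.11 with the replicate number as a block. The 131 calls over all genes became 394 with DESeq2, 699 with every counted gene tested, and 61 to 349 with a library left out. These were 71 without WT 1, 349 without WT 2, 67 without WT 3, 61 without CharmeKO 1, 67 without CharmeKO 2 and 189 without CharmeKO 3. The 1 call among relatives and partners became 4 with every counted gene tested (Wt1 with Tgif1, Mrtfa and Id3) and 0 to 2 with a library left out. The causes of these changes were not tested, and the fits with a library left out also had fewer samples. Over the libraries left out, the log2 fold change changed sign for Gata4 (−0.15 to 0.031), Tbx20 (−0.070 to 0.15), Hand2 (−0.028 to 0.091), Mef2a (−0.0056 to 0.042) and Nkx2-5 (−0.32 to 0.39). Hand2 was also negative after thinning (−0.026), as was Mef2a with the term for Xist against Ddx3y (−0.0016). Meis1 was at 0.64 after thinning.

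With the replicate number as a block, 302 genes and 0 of 10 factors were called. Deviations of same-numbered libraries correlated at 0.216, 0.0535 and 0.161 for numbers 1 to 3, so the numbers are not taken as pairs, although each library correlated best with its own number, which is a hint from the data only. Low counts limit what can be said of Tbx5, with 1 count in WT 3, and of Nkx2-5, with 17 counts in WT 2. The sign of Nkx2-5 turned without WT 2 (−0.32), which is not the smallest library, and without CharmeKO 2 (−0.011).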
